A study of Homo sapiens with 4 samples.

Results

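CREM, CREB1 and ATF1 are the CREB subfamily of basic leucine zipper transcription factors, and CRTC2 and CRTC3 are coactivators of these factors. The poly(A) site clusters of these 5 genes were taken from PAS-seq, a method that reads the cleaved 3′ end of each polyadenylated transcript. A cluster was included where its dominant site, the position with the most tags, lay within the GENCODE 44 span of a gene on the same strand. This gave 10 clusters of 17627 in all, and 5 genes of 11275 with a cluster. CREM was chosen by its measured distal 3′ UTR usage, which fell with L-lactate in both lines, so its usage is described here with no test. The other 4 genes were taken as its family members and partners.

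The libraries came from KYSE30 and TE-1, established human lines of esophageal squamous cell carcinoma (ESCC). In each line, 1 library came from cells exposed to 20 mM L-lactate over 24 h and the other from PBS-treated control cells. The question was whether L-lactate alters the choice of poly(A) site. The 2 control samples carry the cell line labels KYSE32 and TE-3, whereas their titles name K30 and TE1, as the study's methods do, and they were used as the controls of KYSE30 and TE-1. No label names an engineered allele. With 1 library per condition in each line there is no spread between replicates, and intervals within a line (95%) cover counting error only.

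The deposited tables gave depths of 7174991 tags (L-lactate) and 7425554 tags (control) for KYSE30 and of 8468958 and 10393799 tags for TE-1. Levels are in RPM, tags scaled to 1000000 tags of the library, and are not divided by transcript length. Of the 12 epithelial markers examined, KRT8, KRT18, EPCAM and DSP were listed in every library, and TP63, KRT5, KRT14 and SFN in none. KRT19 was at 1574 and 1699 RPM in KYSE30 (L-lactate and control) but at 2.95 RPM and not listed in TE-1, and CDH1 was at 228 and 204 RPM against 1.30 RPM and not listed. KRT6A was listed in KYSE30 alone (40.4 and 20.3 RPM) and KRT17 in TE-1 alone (187 and 245 RPM). Of the 15 markers of blood, endothelium, fibroblast and muscle, 4 were listed in any library. These were CD68 (3.48 to 15.2 RPM), CDH5 in KYSE30 alone (11.2 and 16.2 RPM), and COL1A1 and DCN in TE-1 alone (3.66 to 7.12 RPM). In RNA from whole cultures, fewer expressing cells and less RNA per cell cannot be told apart.

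CREB1, CREM and ATF1 bind the cAMP response element as homodimers or heterodimers. Protein kinase A (PKA), activated by cAMP, and several other kinases phosphorylate them at a serine of the kinase-inducible domain, which recruits the coactivators CREBBP and EP300. CRTC proteins bind the leucine zipper region, and salt-inducible kinases hold them in the cytoplasm until calcineurin or cAMP signalling releases them. CREM gives rise to activators and repressors through alternative exons and promoters, and its DNA-binding region is encoded at the 3′ end of the gene.

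CREM (ENSG00000095794.21, chr10:35126791-35212958 on the plus strand, GRCh38) had 3 clusters. Cluster 1 lay in an intron at chr10:35129244-35129244, 2453 nt past the annotated gene start. Cluster 2 (chr10:35179841-35179847) lay in exon 4, the last exon of the transcript CREM-211, and 1 of 34 protein-coding CREM transcripts contains this site. Its coding sequence is 411 nt long, against 897 nt in CREM-247, and as annotated it ends 31928 nt before the first of the terminal exons used by longer transcripts. Cluster 3 (chr10:35211872-35212462) lay in those terminal exons. Of the 19 coding transcripts that contain its upstream site, 7 use a terminal exon that starts at 35211254 and 12 use one that starts at 35211656. Clusters 2 and 3 therefore mark different last exons with different coding ends, rather than a shorter and a longer 3′ UTR after the same stop codon. They were 32025 nt apart, a distance that 91 of 2034 genes reached or passed (median 2035.5 nt), and 9.88% of genes had outermost 3′ UTR clusters at least 10000 nt apart.

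The bases that end at these CREM cleavage sites are printed because the shift in CREM runs between these sites. Each run holds 30 bases of the GRCh38 plus strand in DNA letters, with the last base at the site and the poly(A) signal hexamer in capitals, which the cleavage machinery recognises a short way upstream of the cut.
CREM cluster 2, upstream site (chr10:35179812-35179841): ctgaaagctctaAATAAAcagatacattca
CREM cluster 3, upstream site (chr10:35211843-35211872): cttttgaaggAATACAatatatagctggca
CREM cluster 3, downstream end (chr10:35212433-35212462): actctactgtgtaaTATAAAagatcttgca

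The proximal cluster 2 had the canonical AAUAAA, 12 nt before its upstream site. The distal cluster 3 had the variant AAUACA 14 nt before its upstream site and the variant UAUAAA 10 nt before its downstream end. Neither end of cluster 3 had AAUAAA or AUUAAA within 50 nt, which was the case for 16.9% of the 17621 clusters read. The search covered the RNA strand and took the first signal present, starting with AAUAAA (the match in 66.4% of clusters) and AUUAAA (in 16.7% of clusters). It went on to the rarer variants UAUAAA (in 2.85% of clusters), AGUAAA (in 2.87% of clusters) and AAUACA (in 1.31% of clusters). Next came CAUAAA (in 1.24% of clusters), AAUAUA (in 1.08% of clusters) and GAUAAA (in 0.931% of clusters). Last were AAUGAA (in 0.624% of clusters), ACUAAA (in 0.397% of clusters), AAGAAA (in 0.556% of clusters) and AAUAGA (in 0.278% of clusters), and 4.79% of clusters had none. UGUA, the motif bound by NUDT21, was present in the 100 nt before all 3 of these sites and before 57.0% of all clusters. A match describes these letters and does not show that a factor was bound.

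CREM cluster 2 had 3.64 RPM (27 tags) in the KYSE30 control and 5.58 RPM (40 tags) with L-lactate. In TE-1 it had 3.37 RPM (35 tags) in the control and 6.97 RPM (59 tags) with L-lactate. In both lines the L-lactate library was the higher of the pair, by 1.53-fold in KYSE30 (log2 ratio of RPM + 1, 0.50, interval -0.10 to 1.10) and by 2.07-fold in TE-1 (0.87, 0.35 to 1.38). Among the 12344 clusters listed in all 4 libraries, 4.5% in KYSE30 and 5.3% in TE-1 were at least 1.5-fold higher in RPM with L-lactate, and 0.867% were so in both lines. The choice of CREM used this contrast, and nothing is read from these shares.

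CREM cluster 3 has an entry that is at odds with itself, that of the KYSE30 L-lactate library. All 27 tags of the cluster were counted at the dominant site, 35211872, yet the quantile positions listed for it still spanned 591 nt to 35212462. In the other libraries the dominant site held 34 of 59 tags (KYSE30 control), 110 of 219 tags (TE-1 L-lactate) and 158 of 320 tags (TE-1 control), 49.4% to 57.6% of the cluster. Entries of this kind were 57 of 9911 clusters wider than 1 nt in that library. Cluster 3 level, distal usage and summed level of CREM are given both as deposited and with 26 further tags. These are 1 fewer than at the dominant site and are placed at 1 other site of the cluster. The limma fits, the distances to other genes and the figures use the entry as deposited.

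As deposited, cluster 3 moved the other way from cluster 2. It had 7.95 RPM (59 tags) in the KYSE30 control and 3.76 RPM (27 tags) with L-lactate, a log2 ratio of -0.91 (-1.48 to -0.34). In TE-1 it had 30.8 RPM (320 tags) in the control and 25.9 RPM (219 tags) with L-lactate, a log2 ratio of -0.24 (-0.49 to 0.00080). The counting intervals did not overlap in KYSE30 (6.05 to 10.2 RPM and 2.48 to 5.48 RPM) and did in TE-1. CREM was chosen with this contrast, so nothing is read from whether they overlap. With 26 further tags the KYSE30 L-lactate library would have had 53 tags of cluster 3 (7.39 RPM), and the log2 ratio to the control would have been -0.09 (-0.59 to 0.40).

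**Figure D1:**
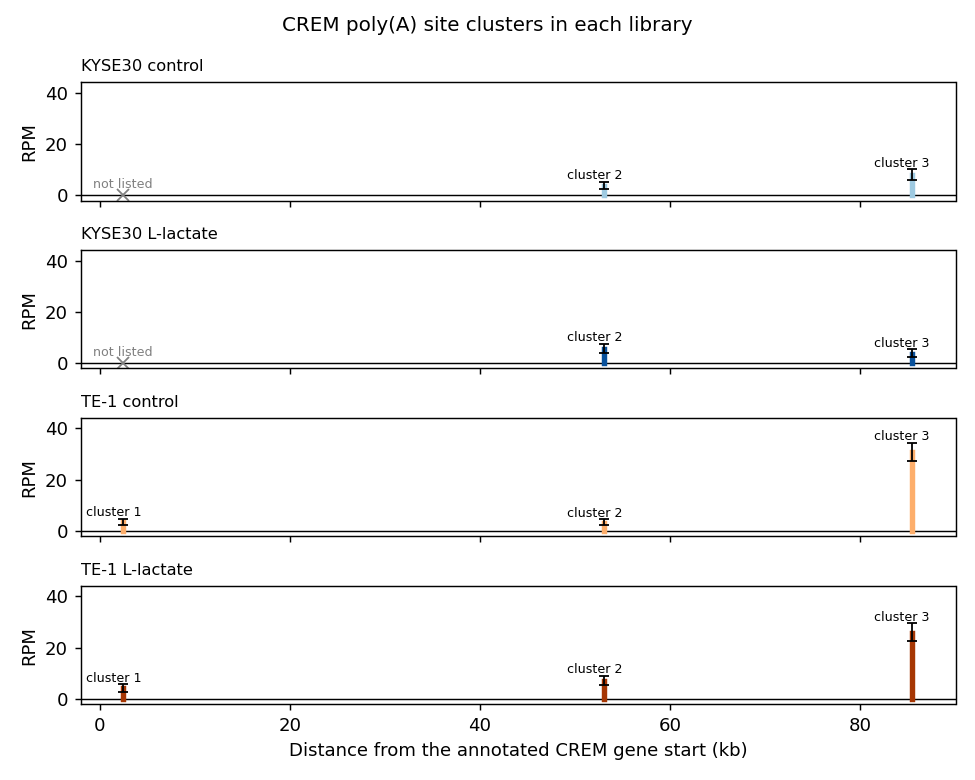
RPM of the CREM poly(A) site clusters (vertical axis) against their distance from the annotated gene start in kb (horizontal axis), 1 panel per library, with bars at the RPM and whiskers for the 95% counting interval. Cluster 3 stood at 30.8 and 25.9 RPM in the TE-1 control and L-lactate libraries and at 7.95 and 3.76 RPM in those of KYSE30, while cluster 2 was between 3.37 and 6.97 RPM everywhere and cluster 1 (crosses) was not listed in KYSE30.

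Distal usage is the share of the tags in 3′ UTR clusters of a gene that fell in the most distal one. It was measured for genes with 2 or more 3′ UTR clusters, each above 5 RPM in at least 1 library of the line. In KYSE30 cells, distal usage of CREM was 68.6% (59 of 86 tags, Wilson interval 58.2% to 77.4%) in the control and 40.3% (27 of 67 tags, 29.4% to 52.3%) with L-lactate. The difference was -28.3 percentage points (Newcombe interval -42.3 to -12.4). In TE-1 cells it was 90.1% (320 of 355 tags, 86.6% to 92.8%) in the control and 78.8% (219 of 278 tags, 73.6% to 83.2%) with L-lactate, a difference of -11.4 points (-17.2 to -5.72). The L-lactate library was thus the lower in each line. Cluster 2 passed 5 RPM only in the L-lactate library of each line, and a minimum of 1 RPM gave the same values. A fall of at least 10 points occurred in 5.9% of 1643 genes in KYSE30, in 5.21% of 1651 genes in TE-1 and in 1.4% of the 1213 genes measured in both (17 genes).

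Ranked by the smaller of its 2 falls, CREM was 11 of those 17 genes. Just inside the threshold of 10 points were GGA2 (-12.4 points in KYSE30 and -10.2 in TE-1) and CSNK1E (-10.2 and -13.1). Just outside were SNTB2 (-17.2 and -9.89) and ARPP19 (-11.2 and -9.66).

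The KYSE30 value rests on few tags and on the doubted entry of cluster 3. With 26 further tags there, KYSE30 usage with L-lactate would have been 57.0% and the difference -11.6 points (-25.1 to 2.55). In the TE-1 control 162 tags of the cluster lay outside the dominant site and 158 at it, so more than 1 other site held tags. More than 26 further tags would make the KYSE30 fall smaller still, and whether it would reach 10 points was not computed. With the tags of dominant sites alone in every library, the differences were -14.3 points (-32.0 to 4.79) in KYSE30 and -12.9 points (-21.5 to -4.51) in TE-1.

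**Figure D2:**
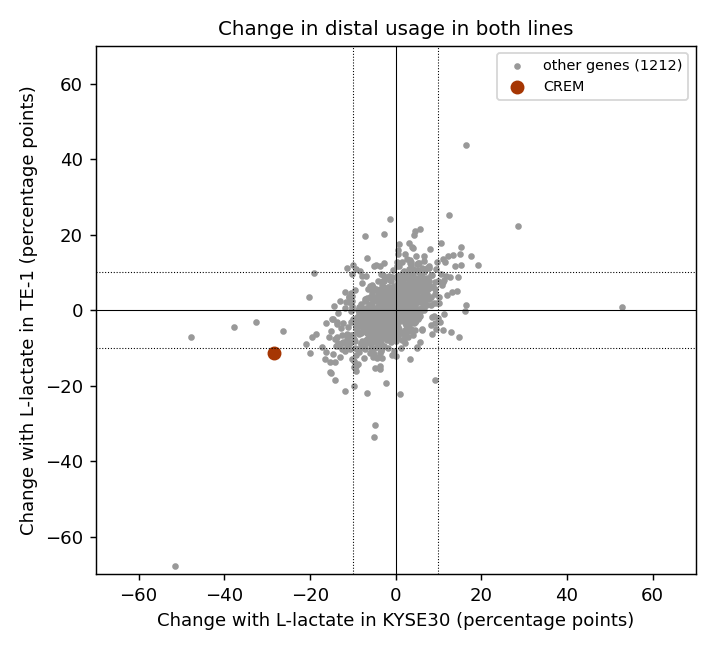
Change in distal usage with L-lactate, in percentage points, in KYSE30 (horizontal axis) and TE-1 (vertical axis) for the 1213 genes measured in both lines, 1 point per gene, with dotted lines at 10 points. CREM, which was chosen for this pattern, lies at -28.3 and -11.4, among the 17 genes in the lower left area past both lines.

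The lines differed in CREM usage in both conditions. Distal usage was higher in TE-1 by 21.5 points (12.02 to 32.3) between the controls and by 38.5 points (25.4 to 50.2) between the L-lactate libraries as deposited, or by 21.8 points (10.9 to 32.8) with 26 further tags in the KYSE30 library. Cluster 3 carried this difference. Its RPM was 3.87-fold higher in TE-1 between the controls (log2 ratio 1.83, 1.46 to 2.21) and 6.87-fold higher between the L-lactate libraries as deposited (2.50, 2.01 to 2.99), or 3.50-fold (1.68, 1.28 to 2.09) with the further tags. Cluster 2 had nearly the same RPM in the 2 controls (log2 ratio of TE-1 to KYSE30 -0.09, -0.68 to 0.51). The intronic cluster 1 was listed in TE-1, at 3.56 RPM (37 tags) in the control and 4.13 RPM (35 tags) with L-lactate, and in neither KYSE30 library. A cluster that is not listed lies below the listing minimum of the tables and is not shown to be absent. The lowest RPM of a listed cluster with a single position was between 1.06 and 1.39 RPM across the libraries, although the study's methods state that single-site clusters under 3 TPM were removed, and CREM cluster 1, CREB1 cluster 1 and ATF1 cluster 1 each had a single position.

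Summed over its clusters, CREM was at 11.6 RPM (86 tags, 9.26 to 14.3) in the KYSE30 control and 9.34 RPM (67 tags, 7.24 to 11.9) with L-lactate. In TE-1 it was at 37.7 RPM (392 tags, 34.1 to 41.6) in the control and 37.0 RPM (313 tags, 33.0 to 41.3) with L-lactate. Within each line the 2 intervals overlapped, and between the lines they were apart. The log2 ratio of L-lactate to control was -0.28 (-0.72 to 0.15) in KYSE30 and -0.03 (-0.24 to 0.18) in TE-1. With 26 further tags in cluster 3, the KYSE30 ratio would have changed sign, to 0.15 (-0.26 to 0.56). Between the L-lactate libraries, the log2 ratio of TE-1 to KYSE30 was 1.88 (1.52 to 2.24) as deposited and 1.44 (1.12 to 1.77) with the further tags. A limma fit of log2(RPM + 1) was made on the deposited values of the 4 libraries, with line and treatment as terms. In it CREM was higher in TE-1 by 1.75 ± 0.15 (SE, adjusted p = 8.07e-06).

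That fit takes its error from how the treatment difference varied between the 2 lines, with 1 residual degree of freedom per gene moderated over 9687 genes. It called 36.9% of genes higher and 37.4% lower in TE-1, so a difference between the lines was common. For L-lactate against control it called 0 genes, while 926 (9.56%) had an unadjusted p under 0.05, and limma voom on the tags also called 0. None of the 5 genes was 1.5-fold changed in level in either line (4.4% of genes were in KYSE30 and 4.44% in TE-1), and none was called for L-lactate (adjusted p from 0.691 to 0.969 in limma).

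**Figure D3:**
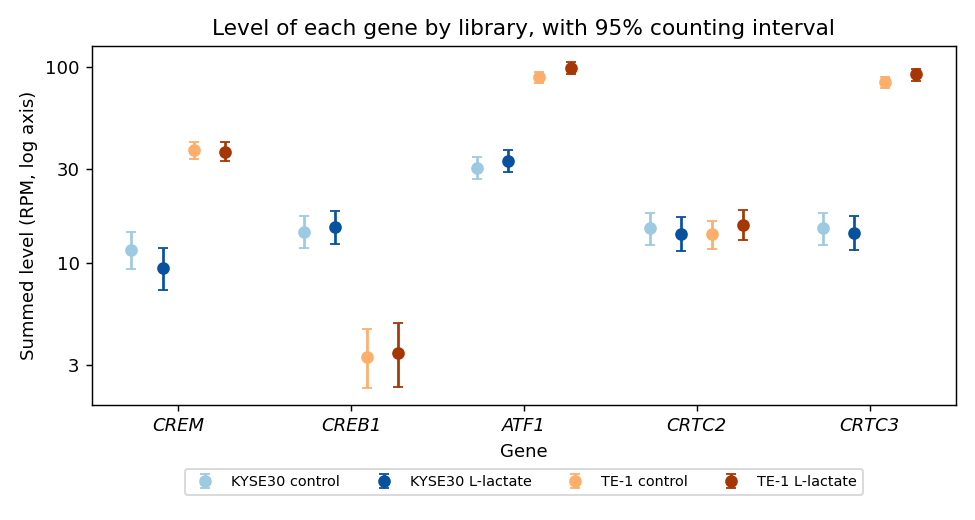
Summed level of each gene in RPM (vertical log axis) by library, with points at the RPM and whiskers for the 95% Poisson interval. The 2 libraries of a line sit close together for every gene, while CREM, ATF1 and CRTC3 are higher and CREB1 lower in TE-1, and CRTC2 lies between 13.95 and 15.6 RPM throughout.

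CREB1 (ENSG00000118260.15, chr2:207529737-207605988, plus strand), the founding member of the family and an activator, was the reverse of CREM between the lines. It was at 14.4 RPM (107 tags) in the KYSE30 control and 15.2 RPM (109 tags) with L-lactate. In TE-1 it was at 3.27 RPM (34 tags) and 3.42 RPM (29 tags), respectively. Both TE-1 values lay below both KYSE30 values, with intervals apart, and limma gave a difference of -1.86 ± 0.19 (TE-1 minus KYSE30, adjusted p = 2.30e-05). The log2 ratio of L-lactate to control was 0.07 (-0.30 to 0.44) in KYSE30 and 0.05 (-0.53 to 0.63) in TE-1.

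Both CREB1 clusters lay in exon 8, the last exon of CREB1-201, and unlike those of CREM they follow the same stop codon. Cluster 1 (chr2:207597145-207597145) lay 90 nt past the coding end and cluster 2 (chr2:207603432-207603432) lay 6377 nt past it. The pair is printed because the line in which CREB1 was low listed the second alone.
CREB1 cluster 1 (chr2:207597116-207597145): tgaaagacaaAATAAAcattttattttcta
CREB1 cluster 2 (chr2:207603403-207603432): cagtcaCATAAAcatgcttttaaaaactct

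The proximal site had AAUAAA and no UGUA within 100 nt, and the distal site had the variant CAUAAA (first match in 1.24% of clusters) and 1 UGUA. Cluster 1 was at 3.50 RPM (26 tags) in the KYSE30 control and 3.76 RPM (27 tags) with L-lactate, and was not listed in TE-1. The lowest single-position clusters listed in TE-1 were at 1.06 RPM in the control and 1.18 RPM with L-lactate. Cluster 1 is thus not shown to be absent there, and no difference in site choice between the lines is read from it. Cluster 2 was at 10.9 RPM and 11.4 RPM in KYSE30 and at 3.27 RPM and 3.42 RPM in TE-1, in the same order. Its log2 ratio of TE-1 to KYSE30 was -1.48 (-1.97 to -0.99) between the controls and -1.49 (-2.01 to -0.97) between the L-lactate libraries. The summed level, with cluster 1 taken as 0 in TE-1, gave -1.85 and -1.87. Cluster 1 did not pass 5 RPM, so CREB1 was outside the genes measured for distal usage. Taken without that minimum, KYSE30 usage of the distal site was 75.7% (81 of 107 tags) in the control and 75.2% (82 of 109 tags) with L-lactate, a difference of -0.47 points (-11.9 to 10.97). At this depth a difference of the size seen in CREM in TE-1 lies within that interval.

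ATF1 (ENSG00000123268.9, chr12:50763710-50821162, plus strand), which forms dimers with CREB1 and CREM, was at 30.6 RPM (227 tags) in the KYSE30 control and 33.3 RPM (239 tags) with L-lactate. In TE-1 it was at 88.9 RPM (924 tags) and 99.3 RPM (841 tags), respectively. The TE-1 libraries were higher, with a limma difference of 1.53 ± 0.09 (adjusted p = 9.45e-07). The log2 ratio of L-lactate to control was 0.12 (-0.14 to 0.38) in KYSE30 and 0.16 (0.02 to 0.29) in TE-1, a difference of 1.12-fold in TE-1. The KYSE30 ratio takes ATF1 cluster 1 as 0 in the control, where it was not listed, and cluster 2 alone gave -0.09 (-0.36 to 0.18).

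The 2 ATF1 clusters lay in exon 7, the last exon of ATF1-201, 576 nt apart. Cluster 1 (chr12:50820548-50820548) was 772 nt past the coding end, and cluster 2 (chr12:50821123-50821159) had its dominant site at 50821124, 1348 nt past it. They are printed because the proximal one was the higher in the L-lactate library of each line.
ATF1 cluster 1 (chr12:50820519-50820548): aatacatAATAAAttgtttttttgagtcta
ATF1 cluster 2 (chr12:50821095-50821124): ctgtgaaATTAAAggacatttgatagtcta

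The proximal site had AAUAAA and no UGUA within 100 nt, and the distal site had AUUAAA and 2 UGUA. ATF1 cluster 1 was not listed in the KYSE30 control and was at 4.60 RPM (33 tags) with L-lactate. In TE-1 it was at 12.6 RPM (131 tags) in the control and 20.1 RPM (170 tags) with L-lactate, 1.59-fold higher (log2 ratio 0.63, 0.31 to 0.95). Cluster 2 differed less, at 30.6 RPM and 28.7 RPM in KYSE30 (log2 ratio -0.09, -0.36 to 0.18) and at 76.3 RPM and 79.2 RPM in TE-1 (0.05, -0.09 to 0.20).

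Distal usage of ATF1 in TE-1 was 85.8% (793 of 924 tags, 83.4% to 87.9%) in the control and 79.8% (671 of 841 tags, 76.9% to 82.4%) with L-lactate. The difference of -6.04 points (-9.57 to -2.52) was below the 10 points used for a call, and 46.9% of genes in TE-1 had a fall of any size. In KYSE30, where cluster 1 did not pass 5 RPM, usage was 100% (227 of 227 tags) in the control, with cluster 1 taken as 0, and 86.2% (206 of 239 tags) with L-lactate. That difference of -13.8 points (-18.8 to -9.66) rests on the listing minimum in the control library. ATF1 therefore had the same sign as CREM in both lines, and its distal usage was lower in TE-1 than in KYSE30 (-14.2 points in the controls, -16.6 to -11.5, and -6.41 points in the L-lactate libraries, -11.2 to -0.83), the reverse of CREM. The control value rests on the 100% of the KYSE30 control.

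CRTC2 (ENSG00000160741.17, chr1:153947669-153958615, minus strand), a coactivator known for its part in the cAMP response of metabolic genes, had a single cluster at chr1:153947677-153947677. It lay in exon 14, the last exon, 435 nt past the coding end, with AAUAAA. CRTC2 was at 14.9 RPM (111 tags) in the KYSE30 control, 14.1 RPM (101 tags) with L-lactate in KYSE30, 13.95 RPM (145 tags) in the TE-1 control and 15.6 RPM (132 tags) with L-lactate in TE-1. All 4 intervals overlapped. Unlike the other 4 genes, it was not called between the lines (limma 0.02 ± 0.17, adjusted p = 0.911).

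CRTC3 (ENSG00000140577.17, chr15:90529923-90645345, plus strand), a paralog of CRTC2, had the largest difference between the lines of the 5 genes. It was at 14.9 RPM (111 tags) in the KYSE30 control and 14.2 RPM (102 tags) with L-lactate, and in TE-1 at 83.9 RPM (872 tags) and 92.0 RPM (779 tags). The limma difference was 2.51 ± 0.12 (adjusted p = 1.92e-07), 5.70-fold on the RPM + 1 scale. The log2 ratio of L-lactate to control was -0.07 (-0.44 to 0.31) in KYSE30 and 0.13 (-0.01 to 0.27) in TE-1.

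Nearly all CRTC3 tags fell in cluster 2 (chr15:90645326-90645346), in exon 15, the last exon of CRTC3-201, with AUUAAA. It was at 13.9 RPM and 12.5 RPM in KYSE30 (control and L-lactate) and at 80.8 RPM and 88.4 RPM in TE-1. CRTC3 cluster 1 (chr15:90594329-90594334) lay in a noncoding exon and was at 1.08 RPM (8 tags) and 1.67 RPM (12 tags) in KYSE30 and at 3.08 RPM (32 tags) and 3.54 RPM (30 tags) in TE-1. CRTC3 had no second 3′ UTR cluster, so distal usage was not measured. None of the 15 cleavage sites read, the dominant sites and the downstream ends of clusters that spanned several positions, had 7 or more A in the next 10 bases of the genome, a mark of internal priming that 1.60% of all clusters had.

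Distal usage over the 4 libraries was also compared with that of the other 1212 genes measured in both lines. CREM usage was taken as deposited, so the distances rest on the doubted KYSE30 L-lactate entry of cluster 3 (40.3%). They were not computed with the 26 further tags (57.0%), which could change the genes and their order. The nearest to CREM by Euclidean distance were DFFA, the inhibitor of an apoptotic nuclease (24.8 points away), DNM1L, the GTPase of mitochondrial fission (25.5), SLC30A1, a zinc exporter (25.5), ARRB1, the β-arrestin 1 gene (25.7), and WTAP, of the RNA methylation complex (26.8). Usage in KYSE30 was 52.3% in the control and 53.9% with L-lactate for DFFA, 51.0% and 44.4% for DNM1L, and 77.4% and 61.0% for SLC30A1. It was 68.9% and 58.0% for ARRB1 and 64.7% and 62.8% for WTAP. In TE-1, usage was higher with L-lactate for DFFA (77.4% and 80%), ARRB1 (71.8% and 75.2%) and WTAP (76.4% and 76.8%), unlike CREM. It was lower with L-lactate for DNM1L (74.6% and 69.9%) and SLC30A1 (78.6% and 75.1%).

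The wider pathway was read from 8 gene lists that include the 5 genes. They held 91 genes, of which 64 were listed in a library and 58 passed the filter of 5 RPM in at least 2 libraries. Between the lines, limma called 29 of the 58 higher and 21 lower in TE-1 (36.9% and 37.4% over all genes), with a median log2 difference of 0.32 against -0.0034 over all genes. With L-lactate it called 0 of the 58, and their median log2 difference was 0.03 against 0.02 over all genes. None of the 58 was 1.5-fold changed the same way in both lines, as 0.423% of all genes were.

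Enzymes of cAMP synthesis and breakdown had 9 of 11 tested genes higher and 1 lower in TE-1. For this list and those that follow, the shares over all genes were 36.9% higher and 37.4% lower. The phosphodiesterases PDE3A (102 RPM in both TE-1 libraries), PDE10A (73.6 RPM with L-lactate and 92.8 RPM in the control) and PDE8B (22.3 and 25.9 RPM) were listed in TE-1 alone. PDE7A was the lower gene, at 17.5 and 18.7 RPM in TE-1 against 131 and 109 RPM in KYSE30 (limma adjusted p = 1.44e-07). Of the PKA subunits and inhibitors, 2 of 6 were higher and 4 lower. The catalytic subunit gene PRKACB was at 72.1 and 76.9 RPM in KYSE30 and 26.5 and 25.8 RPM in TE-1, the inhibitor gene PKIB was at 55.3 and 46.9 RPM in KYSE30 and not listed in TE-1, and the regulatory subunit gene PRKAR2A was higher in TE-1 (limma 0.79, adjusted p = 1.20e-05). The inhibitor gene PKIG was lower in TE-1 (limma -1.23, adjusted p = 8.39e-05), and the regulatory subunit gene PRKAR1B, not listed in the KYSE30 control, was higher (2.29, adjusted p = 0.000955).

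Among kinases that phosphorylate CREB, 4 of 5 tested genes were higher in TE-1, RPS6KA3 by 1.31, RPS6KA4 by 0.57 (log2, limma adjusted p = 3.51e-06 and 0.0197) and CAMK1 as a gene listed in TE-1 alone (18.7 and 13.9 RPM). CAMK2D was lower (-1.68, adjusted p = 7.57e-06). Of the CRTC regulators, 2 of 5 were higher and 2 lower in TE-1. The salt-inducible kinase genes SIK2 (1.47, adjusted p = 4.24e-06) and SIK3 (0.58, adjusted p = 0.0140) were higher by limma. STK11, which encodes the kinase LKB1 that activates them, was at 7.81 and 9.83 RPM in KYSE30 and not listed in TE-1, and the calcineurin subunit gene PPP3CA was lower (-1.19, adjusted p = 6.15e-05). Of the 4 coactivators tested, CRTC3 was higher, CREBBP (-0.78, adjusted p = 6.09e-05) and EP300 (-0.43, adjusted p = 0.0135) were lower, and CRTC2 was not called. The subfamily itself had CREM and ATF1 higher and CREB1 lower.

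The other CREB and ATF factors had 5 of 12 tested genes higher and 3 lower in TE-1. CREB3L2 (limma 1.91, adjusted p = 5.86e-05), CREBZF (0.88, adjusted p = 3.35e-05) and ATF6 (0.81, adjusted p = 0.00165) were higher, and ATF5 (-1.23, adjusted p = 0.000332), ATF6B (-1.21, adjusted p = 9.49e-05) and ATF3 (-0.49, adjusted p = 0.00887) were lower. Of 13 tested CREB target genes, 5 were higher and 7 lower in TE-1. The immediate early gene FOS was at 288 RPM with L-lactate and 380 RPM in the control in KYSE30, against 40.7 and 45.4 RPM in TE-1 (limma -2.91, adjusted p = 2.08e-08). FOSB (8.78 and 11.04 RPM) and the growth factor gene AREG (35.5 and 27.2 RPM) were listed in KYSE30 alone. The orphan nuclear receptor gene NR4A1 was at 13.4 and 25.6 RPM in KYSE30 and 106 and 105.4 RPM in TE-1 (2.45, adjusted p = 3.27e-06). NR4A2 was higher in TE-1 (1.13, adjusted p = 0.000608), and PPARGC1A, a coactivator gene of oxidative metabolism, was listed in TE-1 alone (10.6 and 10.97 RPM).

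**Figure D4:**
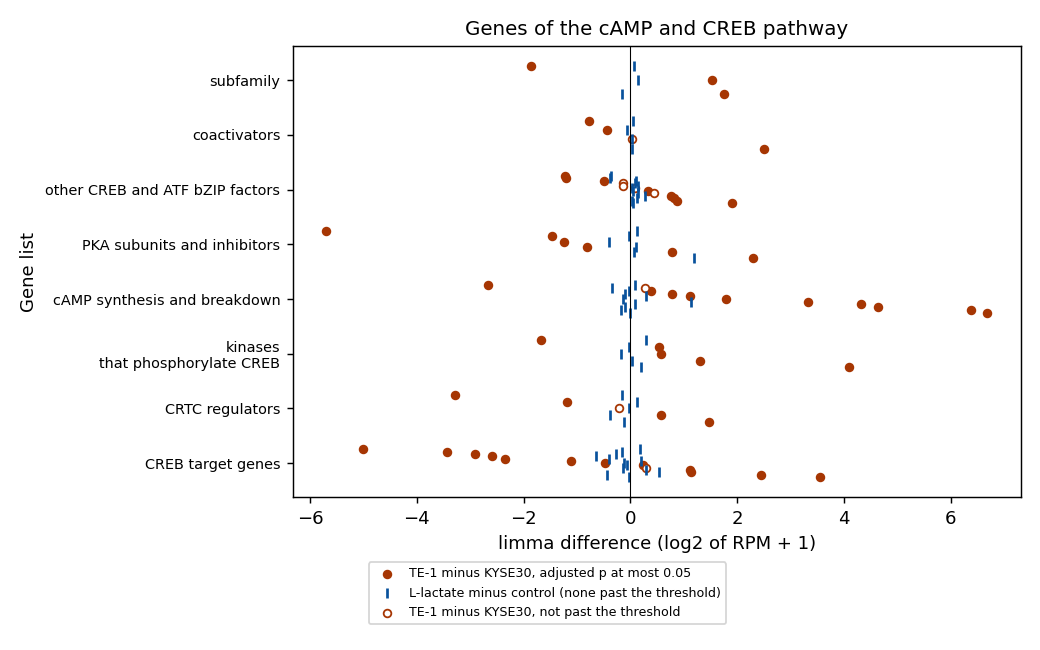
limma differences in log2(RPM + 1) (horizontal axis) for the tested genes of 8 pathway lists (vertical axis). Circles give TE-1 minus KYSE30, filled at an adjusted p of at most 0.05, and blue marks give L-lactate minus control for the same gene. Of 58 genes, 29 are filled to the right and 21 to the left, and no L-lactate difference passed the threshold.

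Single-line differences with L-lactate of at least 1.5-fold occurred in 6 of the 58 genes in either line, where 8.23% of all genes had one. In KYSE30 PRKAR1B (3.76 RPM against not listed in the control), ADCY7 (3.21 RPM against not listed) and PDE4D (29.97 against 19.3 RPM) were higher, and NR4A1 (13.4 against 25.6 RPM) and DUSP1 (18.3 against 28.4 RPM) were lower. In TE-1 VGF (1.77 against 4.91 RPM) was lower. ADCY7, PDE4D, DUSP1 and VGF were named after their values were seen.

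Leaving out CREM, which was chosen for its fall, distal usage was measured for 14 list genes in KYSE30 and 15 in TE-1. It was lower with L-lactate in 10 of 14 genes in KYSE30 (57% of all genes) and in 13 of 15 in TE-1 (46.9% of all genes). The median change was -1.63 points in KYSE30 against -0.54 over all genes, and -3.95 points in TE-1 against 0.24. None of these genes fell or rose by 10 points (rises occurred in 3.23% of genes in KYSE30 and 6.12% in TE-1), and ATF1 in KYSE30 was not among them because its cluster 1 did not pass 5 RPM. The coactivator gene CREBBP changed by -3.61 points in KYSE30 and -7.49 in TE-1, RPS6KA3 by -6.83 and -5.72 points, and the target gene MCL1, an apoptosis inhibitor, by -2.02 and -8.00 points. PRKAR1A was higher in both lines, by 2.23 and 1.62 points. CREBBP, RPS6KA3, MCL1 and PRKAR1A were singled out for distal usage after their values were seen.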

How the data were processed

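PAS-seq was done on 4 libraries, L-lactate and control in KYSE30 and TE-1. According to the study's methods, the authors trimmed reads with FASTX-Toolkit 0.0.13, aligned them to GRCh38 (GRCh38.p14 in the labels) with HISAT2 and called poly(A) sites with CAGEr, leaving out sites under 1 TPM and single-site clusters under 3 TPM, and joining sites within 24 nt and clusters above 5 TPM within 500 nt. The deposited values, named TPM, are RPM: tags of a cluster scaled to 1000000 tags of the library. Joining and the listing minimum affect low clusters most.

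Every RPM was a whole multiple of 1 step per library (100% of values, tolerance 0.0011), which gave the tags and depths. Clusters were joined across libraries, placed on GENCODE 44 by the dominant site, and summed by gene. Clusters not listed were taken as 0. The pseudocount was 1 RPM. limma 3.58.1 in R 4.3.3 (trend, Benjamini-Hochberg, threshold 0.05) was fitted to genes with at least 5 RPM in at least 2 libraries. Shares have Wilson, differences of shares Newcombe, levels Poisson and ratios exact conditional binomial intervals (95%). The limma and distal usage steps were run on simulated data. For limma these held no difference between the lines, so the run does not show how well the error of the fit suits these data. Tables were handled in Python 3.11.15 (pandas 2.3.3, NumPy 2.4.6), intervals came from SciPy 1.17.1, sequence from pysam 0.24.0 and plots from matplotlib 3.10.9. The members and lists were chosen with earlier results of these data known. The genes named are the 5 members, the 5 nearest to CREM in distal usage, list genes 1.5-fold changed the same way in both lines, and up to 3 per direction and list with the largest limma-tested difference between the lines. Alternatives changed the minimum RPM, denominator, listing, call size, pseudocount, scaling, filter and clusters summed.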

Additional observations from a re-analysis of the deposited data

Results flagged for a closer look

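The level of CRTC2 was lower with L-lactate in KYSE30 (log2 ratio -0.08, -0.46 to 0.29) and higher in TE-1 (0.15, -0.18 to 0.48), which put the 2 lines in opposite directions, 0.23 apart. CRTC3 had the same pattern, at -0.07 (-0.44 to 0.31) and 0.13 (-0.01 to 0.27), 0.20 apart. All 4 counting intervals include 0. The difference between the lines was not tested, since each direction rests on 1 pair of libraries.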

How the results depend on the processing

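The 51 alternative values of the members' level ratios all lay within the counting interval of the reported value, and 1 changed sign, that of CREM in KYSE30, to 0.15 with 26 further tags in cluster 3. Alternatives moved the KYSE30 difference in CREM distal usage outside its interval once, to -11.6 points with the same further tags, an alternative added after the data were seen. A minimum of 10 RPM left CREM unmeasured. Counts over all genes followed their thresholds. Genes changed by 10 points in distal usage were 150 in KYSE30 and 187 in TE-1. They were 393 and 400 with a minimum of 1 RPM, 62 and 96 with 10 RPM, 496 and 590 at 5 points, and 14 and 24 at 20 points. Genes 1.5-fold changed in level, 426 and 430, were 149 and 144 at 2-fold and 143 and 166 with a pseudocount of 5. limma called 0 genes for L-lactate and 146 with a pseudocount of 5, none of them among the 5 members, and the cause was not tested. Leaving out each library in turn leaves 3 libraries for 3 coefficients, values with no test. limma voom was likewise an added alternative. The planned edgeR fits were not run, since the tables list no cluster under 8 tags. Replicates could not be paired within a line because each group holds 1 library and so a single replicate number. With line as a term, the treatment term of the limma fit compares the L-lactate and control library within each line. The line term compares TE-1 with KYSE30. Depth limits the low members, with 29 and 34 tags for CREB1 in TE-1 and 67 and 86 tags for CREM in KYSE30.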
